A study of Mus musculus with 6 samples.

Results

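The expression of 9 genes of the tricarboxylic acid (TCA) cycle and of pyruvate entry into it was examined in inguinal white adipose tissue (iWAT), the subcutaneous fat depot of the groin. The genes were named by symbol as *Pcx*, *Pdha1*, *Pdhb*, *Cs*, *Idh3a*, *Ogdh*, *Suclg1*, *Fh1* and *Mdh2*. Of the 37024 rows and 19509 symbols in the count table, 12 rows carried 8 of these symbols. *Pdha1* was not analysed here. The row of a symbol with the largest total was used for it, and 7 of the 9 genes had counts above 0 and passed edgeR's filter on low counts, among 9872 rows tested. The groups were labelled *Lexis*-AdWT and *Lexis*-AdKO, with 3 biological replicates each. All animals were C57BL/6 and had eaten a Western diet for 12 weeks. Both groups carry floxed alleles of the long noncoding RNA *Lexis*. The AdKO mice also carry Adipoq-cre, which acts in cells that express adiponectin, so the other cells of the depot keep the gene, and the AdWT mice are littermate controls. The study gives an age range for most of its mice but not for these animals by name. The comparison asks how adipocyte deletion of *Lexis* relates to the transcripts of this pathway.

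Pyruvate enters mitochondrial metabolism along a pair of routes. The pyruvate dehydrogenase complex oxidizes it to acetyl-CoA, and pyruvate carboxylase adds carbon dioxide to it to give oxaloacetate, which refills the cycle. Citrate synthase joins both products, and the later enzymes of the cycle release carbon dioxide, pass electrons to the respiratory chain and regenerate oxaloacetate. White adipocytes also export citrate to the cytosol for fatty acid synthesis and use oxaloacetate for glyceroneogenesis, which makes the glycerol backbone of stored triglyceride.

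The promoters of the genes on the 2 routes are shown because *Pcx* had the smallest unadjusted *p* of the set, though it did not pass adjustment, and *Pdhb* is the gene it was measured against within each library. They are the 250 bases before an annotated start in RefSeq (GRCm38.p6), read 5′ to 3′ on the strand of the gene. RefSeq gave 14 windows for 8 of the 9 genes, and *Idh3a* had none among them. Capitals mark CCAAT and GGGCGG on either strand, both chosen after the windows were read. The distal *Pcx* window lies at chr19:4510222-4510471 on the plus strand, the proximal one at chr19:4594069-4594318 on the plus strand and the *Pdhb* window at chr14:8172993-8173242 on the minus strand.
Pcx distal: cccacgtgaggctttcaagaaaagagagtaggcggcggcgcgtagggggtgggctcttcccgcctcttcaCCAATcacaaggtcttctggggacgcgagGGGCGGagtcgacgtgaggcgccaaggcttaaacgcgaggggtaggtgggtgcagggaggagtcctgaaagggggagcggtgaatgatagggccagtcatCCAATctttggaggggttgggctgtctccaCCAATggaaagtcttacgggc
Pcx proximal: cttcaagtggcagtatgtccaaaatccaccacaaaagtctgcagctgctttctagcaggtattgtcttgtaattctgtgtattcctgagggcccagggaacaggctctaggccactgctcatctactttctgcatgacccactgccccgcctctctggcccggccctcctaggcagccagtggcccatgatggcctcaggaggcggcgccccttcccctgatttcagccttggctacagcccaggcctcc
Pdhb: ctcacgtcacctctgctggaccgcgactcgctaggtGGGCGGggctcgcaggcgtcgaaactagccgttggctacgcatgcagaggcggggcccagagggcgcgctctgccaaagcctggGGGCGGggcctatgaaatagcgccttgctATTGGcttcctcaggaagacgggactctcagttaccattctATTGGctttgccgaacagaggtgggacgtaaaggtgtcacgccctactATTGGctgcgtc

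The distal *Pcx* window holds 3 CCAAT and 1 GGGCGG, has a GC content of 60.8% and has 16 CpG dinucleotides. The proximal window holds neither motif and has 4 CpG dinucleotides at a GC content of 58.0%, so the starts of the same gene differ in CpG number at a like GC content. The *Pdhb* window holds 3 CCAAT and 2 GGGCGG, with 20 CpG dinucleotides and a GC content of 61.6%. Over all RefSeq windows the median was 6 CpG dinucleotides and 52.4%. CCAAT was present in 8 of the 14 windows of these genes (in *Cs*, *Fh1*, *Ogdh*, *Pcx* and *Pdhb*) and in 33.8% of all 32851 windows. In each window the 250 bases before the start were searched. Of these 8 windows, 4 belong to *Ogdh*, and 3 of those overlap and hold the same CCAAT matches, so the counts of windows are not independent. GGGCGG was present in 7 of the 14 and in 32.7% of all. On either strand, none of the 14 held TCAAGGTCA, an element of estrogen-related receptors (0.387% of all windows), CCGGAAGT, an ETS site (2.88%), GCGC and TGCGC with 1 base between them, an NRF1 site (3.74%), or AGGTCA repeated after 1 base, a direct repeat bound by PPARγ with RXR (0.0335%). A match describes the letters only.

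Totals ranged from 14470542 to 17882713 counts per library, and *Scd1*, a desaturase of lipogenic fat, took 14.9% to 17.5% of them. The count of *4930412L05Rik*, the gene that holds *Lexis*, was 8 to 9 in the libraries labelled AdWT and 11 to 21 in those labelled AdKO. The first exon is kept in the conditional allele and the table does not separate exons. The groups are therefore named by their labels. Adipocyte markers were present in every library, with summed levels of 46127 to 54563 CPM (counts per 1e6 counts) in AdWT and 41317 to 41971 CPM in AdKO. *Fabp4*, *Lep* and *Adipoq* made up most of the sum, whereas *Plin1* was at 31.8 to 38.6 CPM and *Pparg* at 15.0 to 21.6 CPM. Of the 5 adipocyte markers tested among 8 listed, 4 were lower and 1 higher in AdKO (median log2 fold change -0.23), and 1 of the 4 had an unadjusted *p* under 0.05 by edgeR. Skeletal muscle markers summed to 41.1 to 199 CPM in AdWT, highest in replicate 2, and to 21.8 to 24.2 CPM in AdKO. All 8 muscle markers tested among 16 listed were lower in AdKO (median log2 fold change -3.07), 7 of them with an unadjusted *p* under 0.05 by edgeR and 6 with groups that did not overlap, against 2.98% and 5.72% of all rows in that direction. *Ckm* was at 0 in all 3 AdKO libraries, and *Tnnt3* and *Myh4* were at 0 in all 6. In bulk tissue, fewer cells of a type and less RNA per cell cannot be told apart.

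No gene of the set passed a Benjamini-Hochberg adjusted *p* of 0.05 in edgeR's quasi-likelihood test, as was the case for all 9872 rows (percent called 0), of which the smallest adjusted *p* was 0.206. DESeq2 called 27 rows at that threshold, 0 of them in the set. At an unadjusted *p* under 0.05 by edgeR there were 566 rows, 5.73% of those tested, with 272 higher and 294 lower (313 and 162 with library size scaling). *Pcx* was the only 1 of the 7 genes tested among them. An absolute log2 fold change under 0.2 was found for 5 of the 7 genes (*Pdhb*, *Cs*, *Suclg1*, *Fh1* and *Mdh2*), a share near the 62.1% of all rows tested. The median log2 fold change of the 7 genes was -0.09, and that of all rows was 0.01. The median of the 7 lay between -0.18 and -0.017 with each library left out in turn, and was 0.010 with skeletal muscle markers as a covariate. All 7 were below 0, against 48.3% of all rows, but 4 of 7 were below 0 under library size scaling, without AdWT replicate 2 and without AdWT replicate 3, and 3 of 7 with skeletal muscle markers as a covariate.

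**Figure D1:**
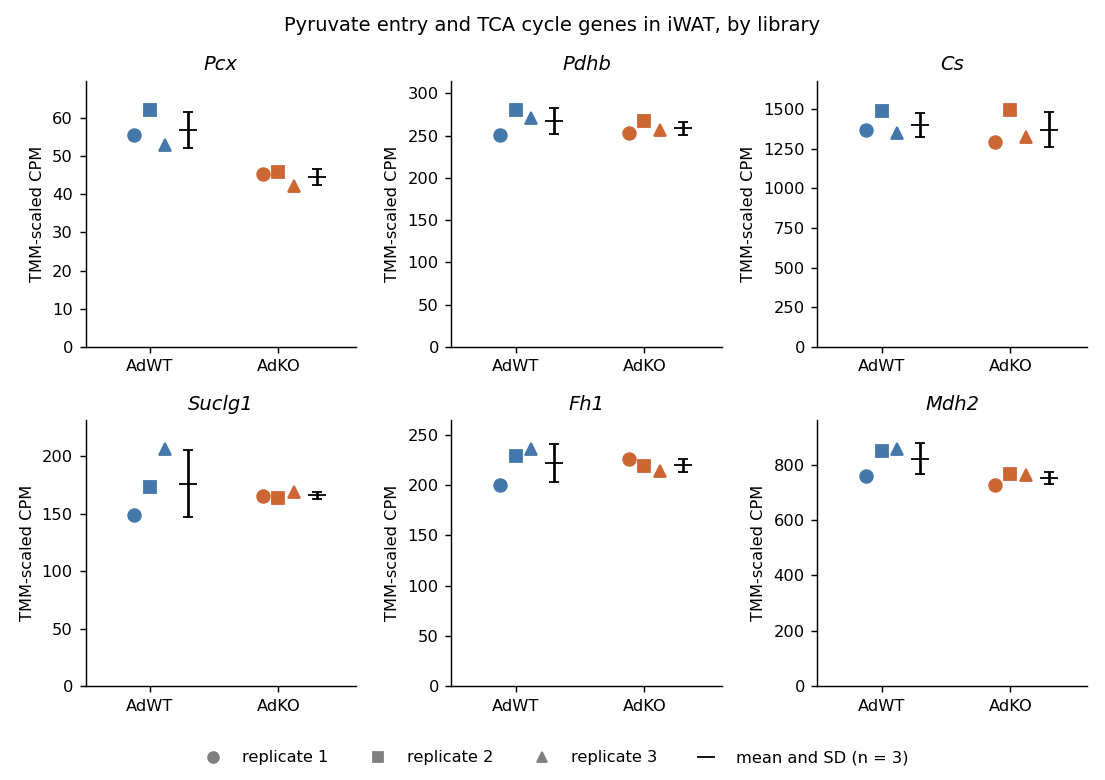
Level of each gene in CPM, scaled by TMM, in each of the 6 libraries for the 6 genes with more than a few counts, with 1 panel per gene, AdWT and AdKO side by side, a point for each library and a bar at the group mean with its SD. The *Pcx* libraries of AdKO (42.2 to 45.9 CPM) all lie below those of AdWT (53.0 to 62.2 CPM), and the points of the other genes overlap between the groups.

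*Pcx* encodes pyruvate carboxylase, the anaplerotic enzyme of the set, and lies at chr19:4510472-4621752 on the plus strand of mm9 (ENSMUSG00000024892.8). Its level was 55.4, 62.2 and 53.0 CPM in the AdWT libraries and 45.4, 45.9 and 42.2 CPM in the AdKO libraries. Every AdKO library lay below every AdWT library. The means were 56.9 ± 4.79 and 44.5 ± 2.0 CPM (SD, n = 3 each), a log2 fold change of -0.35 (SE 0.0881, 95% interval -0.56 to -0.15). The unadjusted *p* was 0.00455 and the adjusted *p* was 0.817 in edgeR's quasi-likelihood test, with adjusted values of 0.346 (DESeq2) to 0.99996 over the alternatives. Lower values with an unadjusted *p* under 0.05 were found in 2.98% of all rows, and groups that did not overlap in 11.9% (5.72% lower and 6.16% higher). A two-sided exact permutation test gave *p* = 0.1, the smallest that 3 against 3 allows. The log2 fold change was -0.29 (SE 0.0886, unadjusted *p* = 0.0168 by edgeR) without AdWT replicate 2, the library with the most muscle RNA. It was -0.15 (SE 0.140, unadjusted *p* = 0.331 by edgeR) with the mean of the muscle markers as a covariate. The part of muscle RNA and of the lower adipocyte markers in the difference was not tested further.

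A second row of *Pcx* did not follow the labels. It held 54.6, 49.5 and 21.1 CPM in AdWT and 24.3, 43.9 and 21.4 CPM in AdKO. AdWT replicates 1 and 2 and AdKO replicate 2 were high, the other 3 libraries were low, and the groups overlapped. The log2 fold change of this row was -0.48 (SE 0.392, 95% interval -1.40 to 0.43, adjusted *p* = 0.860 by edgeR). It took 49.6%, 44.3% and 28.5% of the *Pcx* counts in AdWT and 34.9%, 48.9% and 33.6% in AdKO (two-sided exact permutation *p* = 0.9). With both rows summed, the log2 fold change was -0.41 (SE 0.189, unadjusted *p* = 0.0673 by edgeR). The 3 coding transcripts of the gene have 3 starts and share 91.7% of their exonic bases. How reads shared by them were divided is not given in the sources used here, so a row cannot be assigned to a start. *Lrfn4*, on the opposite strand within the gene, had 19 to 39 counts.

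*Pdhb* encodes the beta subunit of the E1 enzyme of pyruvate dehydrogenase and lies at chr14:8998505-9005506 on the minus strand of mm9 (ENSMUSG00000021748.8). Its level was 250.8, 281.0 and 271.3 CPM in AdWT and 252.8, 267.4 and 256.4 CPM in AdKO. The AdKO libraries lay inside the range of the AdWT libraries. The log2 fold change was -0.05 (SE 0.0695, 95% interval -0.21 to 0.11, adjusted *p* = 0.904 by edgeR), and it was 0.00057 with library size scaling. This interval bounds a difference between a fold of 0.864 and 1.08.

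The *Pcx* to *Pdhb* ratio sets a transcript of the carboxylating route against a transcript of the oxidizing route within a library. It does not measure the use of either route. For every 100 counts of *Pdhb* there were 22.1, 22.1 and 19.5 counts of *Pcx* in AdWT and 18.0, 17.2 and 16.5 in AdKO. The AdKO values were all below the AdWT values. The log2 ratio was -2.23 ± 0.103 in AdWT and -2.53 ± 0.0623 in AdKO (SD, n = 3 each), a difference of -0.30 (two-sided exact permutation *p* = 0.1, the smallest possible). With both *Pcx* rows counted, the numbers per 100 were 43.9, 39.8 and 27.3 in AdWT and 27.6, 33.6 and 24.8 in AdKO, which overlap (two-sided exact permutation *p* = 0.3). The ratio of the main row had a *p* of 0.2 in the exact permutation test without AdKO replicate 3, against 0.1 with any other library left out. With the replicate block the exact permutation *p* was 0.25 at an unchanged difference of -0.30. That is the smallest *p* that exchanges within 3 blocks allow. A *p* under 0.05 was out of reach for either ratio in the exact permutation test with 3 libraries per group.

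**Figure D2:**
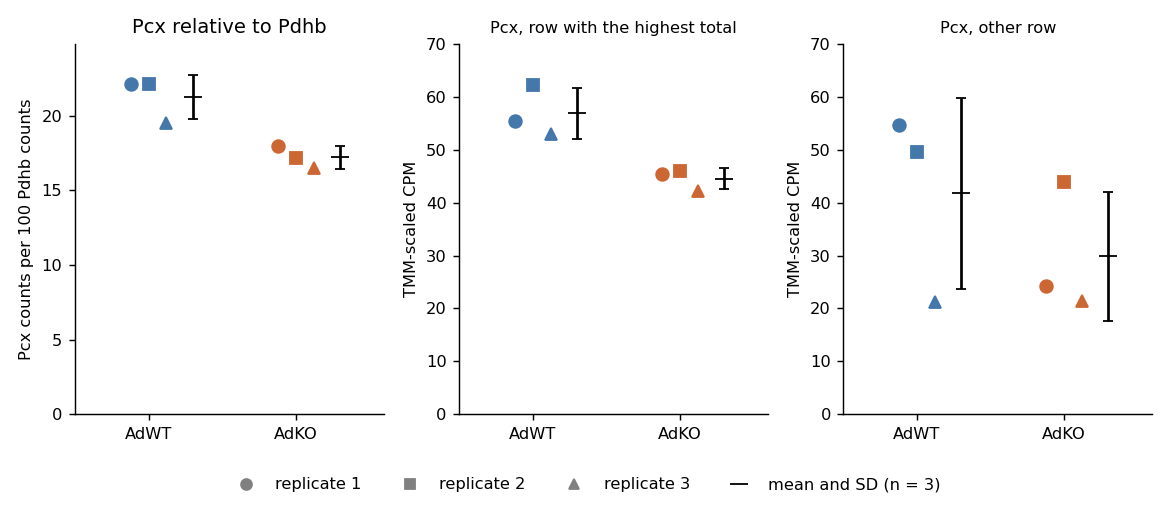
*Pcx* counts per 100 *Pdhb* counts, CPM of the *Pcx* row with the highest total and CPM of its other row, from left to right, in each of the 3 AdWT and 3 AdKO libraries, with bars at the group mean and SD. The ratio and the row with the highest total separate the groups (22.1 to 19.5 against 18.0 to 16.5 per 100), while the other row falls into 3 high libraries (43.9 CPM or more) and 3 low ones (24.3 CPM or less) across the labels.

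*Cs*, citrate synthase, which opens the cycle, had the most counts of the set (chr10:127774888-127799535, plus strand, mm9, ENSMUSG00000005683.7). Its level was 1367, 1486 and 1347 CPM in AdWT and 1294, 1498 and 1322 CPM in AdKO. Replicate 2 was the highest library in both groups, and the groups overlapped. This was a log2 fold change of -0.03 (SE 0.0908, 95% interval -0.24 to 0.18, adjusted *p* = 0.963 by edgeR). It turned to 0.018 with library size scaling. The near-identical gene *Csl* had 42 to 66 counts, 0.201% to 0.303% of those of *Cs*.

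*Mdh2*, mitochondrial malate dehydrogenase, closes the cycle by returning malate to oxaloacetate (chr5:136254350-136266268, plus strand, mm9, ENSMUSG00000019179.6). Its level was 758.0, 849.5 and 858.1 CPM in AdWT and 726.0, 765.6 and 765.1 CPM in AdKO. AdWT replicate 1 lay within the AdKO range, and the other AdWT libraries lay above it. AdKO over AdWT gave a log2 fold change of -0.13 (SE 0.0787, 95% interval -0.31 to 0.06, adjusted *p* = 0.853 by edgeR). It lay between -0.18 and -0.10 with each library left out in turn, with an unadjusted *p* of 0.0424 by edgeR without AdWT replicate 1. In that setting 1208 of 10204 rows had an unadjusted *p* under 0.05 by edgeR, against 5.73% of rows in the main comparison.

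*Suclg1*, the alpha subunit of succinyl-CoA synthetase, makes nucleotide triphosphate in the cycle (chr6:73198376-73226905, plus strand, mm9, ENSMUSG00000052738.7). Its level was 148.7, 173.3 and 206.4 CPM in AdWT and 165.3, 163.3 and 169.3 CPM in AdKO. The AdWT libraries spread on both sides of the AdKO libraries, with an SD of 29.0 against 3.05 CPM. The log2 fold change was -0.09 (SE 0.116, 95% interval -0.36 to 0.18, adjusted *p* = 0.899 by edgeR), and it was 0.034 without AdWT replicate 3, the highest library.

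*Fh1*, fumarate hydratase, turns fumarate into malate (chr1:177530505-177555766, minus strand, mm9, ENSMUSG00000026526.7). Its level was 200.5, 228.9 and 236.1 CPM in AdWT and 226.0, 219.1 and 213.7 CPM in AdKO. The AdKO libraries lay inside the AdWT range. A log2 fold change of -0.01 resulted (SE 0.0791, 95% interval -0.20 to 0.17, adjusted *p* = 0.982 by edgeR), and it turned to 0.035 with library size scaling. *Kmo*, on the opposite strand, had 0 to 9 counts.

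*Idh3a* and *Ogdh*, which encode subunits of the isocitrate and oxoglutarate dehydrogenases that release carbon dioxide, were listed at or near 0. *Idh3a* (chr9:54434288-54452468, plus strand, mm9, ENSMUSG00000032279.9) had 2, 14 and 12 counts in AdWT and 7, 10 and 6 in AdKO. The groups overlapped, and the log2 fold change of -0.25 had a 95% interval of -1.70 to 1.19 (SE 0.618, adjusted *p* = 0.950 by edgeR), which leaves room for a large difference in either direction. *Ogdh* (chr11:6191636-6256645, plus strand, mm9, ENSMUSG00000020456.10) was listed at 0 in all 6 libraries, which allows up to 0.179 to 0.206 CPM by counting error. Of the other subunits of the enzyme of *Idh3a*, *Idh3b* was measured at 380 ± 26.8 CPM in AdWT and 367 ± 14.9 CPM in AdKO (SD, n = 3 each), whereas *Idh3g* was also near 0, with 4 to 7 counts per library. *Dlst*, a subunit of the same complex as *Ogdh*, was measured at 203 ± 17.2 and 206 ± 2.57 CPM. The annotation gives 2 coding transcripts for *Idh3a*, which share 66.7% of their exonic bases, and 10 for *Ogdh*, which share 5.6%. These subunits were chosen after their values were seen. Whether counting or expression gives the values at or near 0 was not tested, and they are given as listed. Of all symbols with a single row, 3434 of 10815 were at 0 here, as were 1751 of 8694 symbols with several rows.

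Per kilobase of the longest coding transcript, which allows levels to be set side by side between genes, the order in AdWT was *Mdh2*, *Cs*, *Pdhb*, *Suclg1*, *Fh1*, *Pcx* and *Idh3a*. The means were 564 ± 38.1 CPM per kilobase for *Mdh2* and 495 ± 26.5 for *Cs*, and the ranges of this first pair overlapped. They were 180 ± 10.4 for *Pdhb*, 116 ± 19.1 for *Suclg1* and 84.2 ± 7.13 for *Fh1*. *Pcx* stood at 13.7 ± 1.15 by the row with more counts, and *Idh3a* at 0.246 ± 0.166 (SD, n = 3 each). In AdKO the same quantity was 517 for *Mdh2*, 485 for *Cs*, 174 for *Pdhb*, 109 for *Suclg1*, 83.3 for *Fh1*, 10.7 for *Pcx* and 0.208 for *Idh3a*, in the same order. The levels per kilobase rest on the GENCODE models of mm9 and not on the annotation used for counting.

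The SD of log2 CPM over the 6 libraries was 0.0647 for *Pdhb*, 0.0831 for *Fh1*, 0.0885 for *Cs*, 0.0973 for *Mdh2* and 0.155 for *Suclg1*. It was 0.209 for *Pcx* and 0.413 for *Idh3a*, against a median of 0.211 for all rows tested, which include many genes with lower counts. Their summed level was 2945 ± 153 CPM in AdWT and 2813 ± 131 CPM in AdKO (SD, n = 3 each, two-sided exact permutation *p* = 0.2). As a share of all counts this was 0.289% and 0.286%. *Pdhb* and *Mdh2* had the smallest SD of their log2 ratio of any pair, 0.0536 over the 6 libraries, yet that ratio was higher in every AdKO library than in every AdWT library, by 0.08 on average. Of the 21 ratios between the 7 genes, 5 did not overlap between the groups, namely *Pdhb* to *Mdh2*, *Fh1* to *Mdh2* (0.11 higher in AdKO) and *Pcx* to each of *Pdhb*, *Cs* and *Fh1* (differences of -0.30, -0.32 and -0.34). Each of these ratios holds *Pcx* or *Mdh2*, so they are not independent. No share over other pairs of genes was computed. Of the single rows tested, 11.9% did not overlap between the groups.

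**Figure D3:**
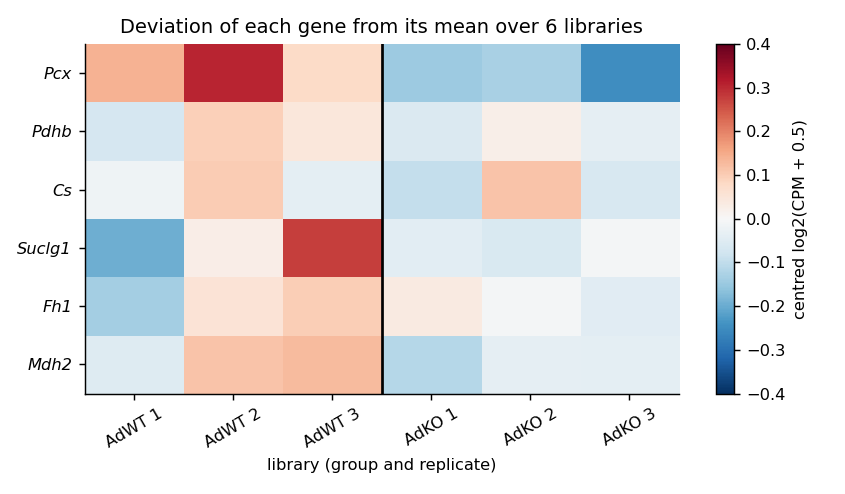
Log2 CPM of each gene minus its mean over the 6 libraries, drawn as a heat map with 1 row per gene (*Idh3a* and *Ogdh* left out) and 1 column per library, red above and blue below the mean, with 0.5 added to CPM. The *Pcx* row is red in the 3 AdWT libraries and blue in the 3 AdKO libraries, and no other row divides this way.

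Among 4421 rows with at least 10 CPM in every library, the rows outside the set whose centred levels lay closest to the mean profile of the 7 tested genes were *Psph*, *Deb1* and *Hagh*, with root mean square distances of 0.0176, 0.0191 and 0.0282 on the log2 scale over the 6 libraries. The median distance of all those rows was 0.152. *Idh3a*, with 2 counts in AdWT replicate 1, has the same weight in this profile as the other genes, so the order of the closest rows rests in part on few counts.

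The other genes of the pathway were taken from fixed lists. Of 10 partners and regulators of pyruvate dehydrogenase, 5 were tested, 2 were higher and 3 lower in AdKO, none had an unadjusted *p* under 0.05, and the median log2 fold change was -0.05. *Pdk4*, a kinase that switches the complex off, had the largest log2 fold change of them. Its level was 449.8, 553.3 and 679.5 CPM in AdWT and 454.5, 364.5 and 587.0 CPM in AdKO, which overlapped. Its log2 fold change was -0.26 (SE 0.202, adjusted *p* = 0.859 by edgeR), and it was -0.11 without AdWT replicate 3 or without AdKO replicate 2, -0.39 without AdWT replicate 1 and -0.45 without AdKO replicate 3. Of 11 other enzymes of the cycle, 8 were tested, 2 were higher and 6 lower, none had an unadjusted *p* under 0.05, and the median was -0.03. The largest log2 fold change was 0.15 (SE 0.145) for *Sucla2*, a beta subunit that pairs with *Suclg1*, and it was 0.031 without AdWT replicate 3 and 0.23 without AdKO replicate 3.

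Genes that supply pyruvate or exchange it with malate and oxaloacetate had the largest absolute median of the 6 pathway lists. Of 10 listed, 6 were tested, 4 were higher and 2 lower, and the median log2 fold change was 0.41, but *Mpc1*, *Ldha* and *Me3* among the 6 had means under 2 CPM. *Pck1*, cytosolic phosphoenolpyruvate carboxykinase, draws oxaloacetate off for glyceroneogenesis in fat. Its level was 88.4, 106.2 and 92.1 CPM in AdWT and 189.2, 115.8 and 147.8 CPM in AdKO. Every AdKO library lay above every AdWT library, with AdKO replicate 2 close to the highest AdWT library. The log2 fold change was 0.66 (SE 0.172, 95% interval 0.26 to 1.06, unadjusted *p* = 0.00579, adjusted *p* = 0.817 by edgeR), and higher values with an unadjusted *p* under 0.05 were found in 2.76% of all rows. Its adjusted *p* lay between 0.0918, by DESeq2, and 0.99996 over the alternatives. *Pcx*, which makes oxaloacetate, and *Pck1*, which consumes it, thus stood on opposite sides of 0 in the same libraries, both short of the adjusted threshold.

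Of 11 cytosolic counterparts and carriers, 8 were tested, 3 were higher and 5 lower, with a median of -0.08. *Got1*, the cytosolic aspartate aminotransferase, had 20.3, 16.3 and 14.7 CPM in AdWT and 20.0, 21.2 and 25.2 CPM in AdKO. AdWT replicate 1 lay just above the lowest AdKO library. Its log2 fold change was 0.37 (SE 0.155, unadjusted *p* = 0.0449, adjusted *p* = 0.851 by edgeR). The unadjusted *p* was 0.0106 to 0.289 over the alternatives and over 0.05 in 8 of 17 of them, among them upper quartile scaling, library size scaling, the muscle covariate and the tests without AdWT replicate 2 or 3 or AdKO replicate 2 or 3. *Mdh1*, the cytosolic partner of *Mdh2*, was named after its values were seen. It had 839.6, 980.5 and 967.4 CPM in AdWT and 837.7, 816.7 and 800.6 CPM in AdKO. The groups did not overlap, as in 5.72% of all rows in this direction, but AdWT replicate 1 and AdKO replicate 1 were nearly equal, and the log2 fold change was -0.18 (SE 0.0844, adjusted *p* = 0.851 by edgeR). Without AdWT replicate 1 it was -0.25 (unadjusted *p* = 0.0116 by edgeR), a setting in which 1208 of 10204 rows had an unadjusted *p* under 0.05.

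Of 6 other anaplerotic genes, 5 were tested, 1 was higher and 4 lower, the median was -0.09, and *Pcca*, a subunit of propionyl-CoA carboxylase, had the largest log2 fold change at -0.16 (SE 0.0917). Of 12 genes of mitochondrial mass and its control, 6 were tested, 2 were higher and 4 lower, with a median of -0.08. The largest was -0.45 (SE 0.358) for *Tomm40*, a channel of the outer membrane, at 0.765 CPM in AdWT and 0.558 CPM in AdKO. It was -0.26 without AdKO replicate 2 and -0.60 without AdWT replicate 3. No gene of these 2 lists had an unadjusted *p* under 0.05 with all libraries, but *Pcca* had a log2 fold change of -0.24 (unadjusted *p* = 0.00885 by edgeR) without AdWT replicate 1. That is the setting in which 1208 of 10204 rows had an unadjusted *p* under 0.05 by edgeR. Among the remaining marker lists, brown or beige adipocyte genes were tested for 6, with 4 higher and 2 lower, macrophage genes for 3, all higher, fibroblast and progenitor genes for 3, with 1 higher and 2 lower, endothelial genes for 2, with 1 higher and 1 lower, lymphocyte genes for 3, all lower, and epithelial genes for 1, which was higher. In these lists 2 genes had an unadjusted *p* under 0.05, both brown or beige adipocyte genes that were higher in AdKO, a direction called in 2.76% of all rows. They were *Ucp1*, the uncoupling protein, at a log2 fold change of 1.85 (unadjusted *p* = 0.0135 by edgeR, overlapping groups) and *Cox8b*, a subunit of cytochrome oxidase, at 0.60 (unadjusted *p* = 0.00783 by edgeR, groups that did not overlap). They were named after their values were seen, and their adjusted *p* was 0.851 and 0.847 by edgeR. *Epcam*, the epithelial gene tested, had 12, 3 and 20 counts in AdWT and 6, 5 and 216 in AdKO, so its rise came from AdKO replicate 3. *Krt18*, which was not tested, had 6, 9 and 173 counts in AdWT and 5, 9 and 333 in AdKO, high in replicate 3 of both groups. These epithelial genes were also named after their values were seen.

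**Figure D4:**
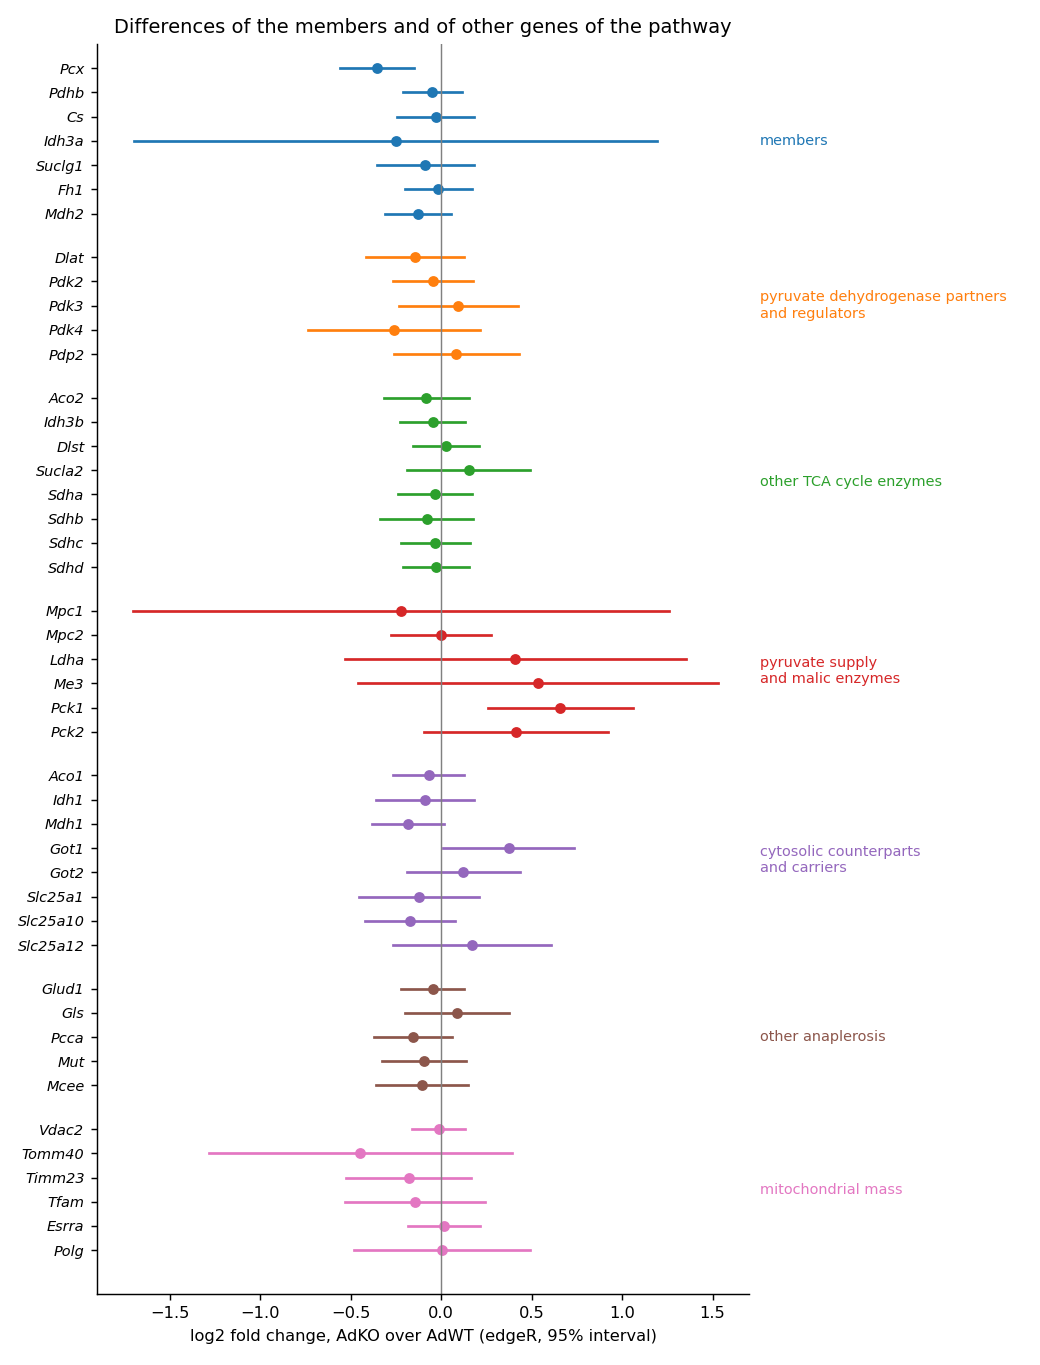
Log2 fold change, AdKO over AdWT, with its 95% interval for each tested gene of the set (members) and of the 6 pathway lists. Intervals of *Pcx* (-0.56 to -0.15), *Pck1* (0.26 to 1.06) and *Got1* exclude 0 before adjustment, and those of the other genes drawn include it.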

How the data were processed

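RNA was isolated from iWAT of *Lexis*-AdWT and *Lexis*-AdKO mice (3 biological replicates each) and libraries were made with the KAPA Stranded RNA-Seq Kit. Reads were aligned by the authors to mm9 with HISAT2, and raw counts per row were deposited by the authors without normalization. The counting tool, its annotation and its use of strand are not given in the sources used here. The processing notes of the submitters name DESeq2 without a version.

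For each symbol the row with the highest total over the 6 libraries was used. Counts were compared with edgeR 4.0.16 in R 4.3.3 (filterByExpr by group, TMM scaling, glmQLFit and glmQLFTest), with Benjamini-Hochberg adjustment over all 9872 rows tested and a threshold of 0.05. DESeq2 1.42.0 was an alternative, and both were first tested on simulated counts (seed 1) in which 200 genes were changed. Standard errors were obtained from the *F* statistic and the fold change, and intervals are at the 95% level. Exact permutation tests were two-sided. They used log2(CPM + 0.5) for single genes and for the ratio of the main *Pcx* row to *Pdhb*. Those of the summed level, of the share of the second *Pcx* row and of both *Pcx* rows per 100 *Pdhb* counts used values without logarithm. Totals of 14470542 to 17882713 counts per library set the counting error, and a count of 0 was taken to allow 3 counts. Intervals on counts cover counting error only.

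Other alternatives were scaling by RLE, by the upper quartile or by the total alone, a filter that kept any row with 1 count or only rows with 10 counts in every library, a robust fit, a replicate block, rows of a symbol summed, the mean of skeletal muscle markers as a covariate, *Scd1* left out, a pseudocount of 0.05, and each library left out in turn. The other row of *Pcx* was added as an alternative after its values were seen. The planned ratio of *Pcx* to *Pdha1* and *Pdhb* used *Pdhb* alone, because *Pdha1* was not analysed here. The members and the gene lists were chosen with earlier results of these data known. Named genes were the members, from each pathway list those with an unadjusted *p* under 0.05 and the largest absolute log2 fold change, and the 3 rows closest to the members' mean profile. Figures were drawn with matplotlib 3.10.9 in Python 3.11.15. The qPCR, ChIRP-seq and single-nucleus data were not used here.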

Additional observations from a re-analysis of the deposited data

How the results depend on the processing

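No *p* of the 7 tested genes of the set was under 0.05 after adjustment over all rows in the main comparison or in any of the 17 alternatives. *Pcx*, *Mdh2*, *Pck1*, *Got1*, *Mdh1*, *Pdk4* and *Pcca* kept their direction under each of them. With library size only, the log2 fold changes of *Pdhb*, *Cs* and *Fh1* turned to 0.00057, 0.018 and 0.035, and the median of all rows moved from 0.01 to 0.05. With the skeletal muscle covariate, whose levels separate the groups, those of *Pdhb*, *Cs*, *Idh3a* and *Fh1* turned to 0.033, 0.095, 0.29 and 0.010. In the 6 tests that each left out 1 replicate, the differences ranged from -0.11 to 0.010 for *Cs*, from -0.082 to 0.023 for *Fh1*, from -0.71 to 0.093 for *Idh3a* and from -0.19 to 0.034 for *Suclg1*. The cause of these turns was not tested. Rows that passed an adjusted *p* of 0.05 numbered 0 in the main comparison, 27 with DESeq2, 1 when any row with a count was kept, and 0 to 1 with a replicate left out. The number with an unadjusted *p* under 0.05 was 259 with the muscle covariate and 329 to 1208 with a replicate left out, the highest without AdWT replicate 1. *Pcx* had the only unadjusted *p* under 0.05 among the 7 genes in the main comparison. There were 0 with the rows of a symbol summed and 0 with the muscle covariate, and 1 to 2 with a replicate left out, where *Mdh2* was added without AdWT replicate 1. Among rows with an unadjusted *p* under 0.05, 272 were higher and 294 lower in the main comparison, 313 and 162 with library size only, 735 and 473 without AdWT replicate 1 and 159 and 100 with the muscle covariate. Same-numbered libraries deviated from their group means with correlations of -0.10, -0.12 and 0.35. Those of libraries with unlike numbers ranged from -0.34 to 0.45. With 3 libraries per group these values cannot decide whether the numbers pair the samples. With the replicate block the number of rows with an unadjusted *p* under 0.05 was 418 and the log2 fold change of *Pcx* was -0.35, no adjusted call changed, and the unadjusted *p* of *Got1* by edgeR was 0.0814. *Idh3a* had few counts and a wide interval, *Ogdh* was at 0 and was not tested, and how reads shared between rows of a symbol were counted is not given in the sources used here. At 10 or more counts in every library *Idh3a* was not tested.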
